A study of Mus musculus with 4 samples.

Results

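The glucagon gene Gcg, the peptide YY gene Pyy and 6 further genes of the early pancreas and gut endocrine cells were followed in mouse embryos at E9.5, in RNA of the posterior portion. The members were Gcg, Pyy, Iapp, Chga, Pdx1, Ptf1a, Neurog3 and Pax4. The members were chosen by earlier measured values of the same contrast, the log2 signals of the Jmjd3-/- arrays against those of the wild-type arrays, and by their known roles, so every genotype difference given for them is a description and carries no test. Of the 8 genes, 7 had a named probe on the array, 8 probes in all of 41174, and 18224 genes had a named probe in the whole series. Iapp matched no probe. The filter on dim probes was passed by 4 of the 8 genes, Gcg, Pyy, Chga and Neurog3, and was not passed by Pdx1, Ptf1a and Pax4.

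Total RNA came from the posterior portion of Jmjd3-/- embryos and of wild-type embryos at E9.5, both from crosses between Jmjd3+/- mice. Jmjd3, now named Kdm6b, encodes a demethylase that removes a repressive methyl mark from histone H3. Each genotype had 2 RNA samples, each on 1 Cy3 array, and the samples keep their label numbers: numbers 1 and 9 for the Jmjd3-/- samples, numbers 3 and 4 for the wild-type samples. The strain, the deleted part of the gene, the sex and the number of embryos in a sample are not known here, and the spread between samples may be partly technical.

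Signals are given as the scanner software's processed signal in arbitrary units, or as its log2 less the 75th percentile of the same array. A difference is Jmjd3-/- minus wild-type on that log2 scale. The share of probes well above background ran from 59.8% to 63.0%, with 0 saturated spots. The wild-type arrays were more than 2-fold apart at 157 of 13583 tested genes, and the Jmjd3-/- arrays at 431. Jmjd3-/- replicate 1 stood further from the wild-type arrays (705 and 805 genes) than replicate 9 did (332 and 354 genes), so each member is shown on both arrays. Kdm6b itself was at 0.35 (replicate 1) and 0.11 (replicate 9) in the Jmjd3-/- samples, against 2.15 and 2.23 in the wild-type pair. Whether its probe lies in the deleted part is not known here, and outside that part it would check nothing. All 10 posterior markers, such as Cdx2, Wnt3a and Hoxd13, were tested, which needs a signal well above background on both arrays of a genotype. Of 8 head markers with a probe, Otx2, Six3, Six6 and En1 were not well above background on any array. Lhx2 and Emx2 were well above background on every array, with Lhx2 at 1.35 and 1.61 in the wild-type pair.

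Gcg encodes proglucagon, a precursor that is cut into glucagon in pancreatic alpha cells and into glucagon-like peptides in intestinal L cells and some neurons. Pyy encodes a gut peptide that is stored with the glucagon-like peptides in L cells and that also marks early endocrine cells of the pancreas. The pancreas buds from the gut tube at about this stage. Pdx1 and Ptf1a mark its progenitors, Neurog3 starts the endocrine programme, Pax4 favours beta and delta cells, Iapp encodes a peptide secreted with insulin, and Chga encodes a protein of secretory granules.

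Gcg was the member with the widest separation between the genotypes. Its probe, A_51_P406253 (NM_008100), was printed in 10 spots on every array, between rows 11 and 520 of 532 and columns 5 and 84 of 85, so that it was measured over nearly the whole surface. In wild-type replicate 3 the spots read between 140.4 and 155.3, with a median of 148.4, and in wild-type replicate 4 between 185.9 and 216.2, with a median of 201.0. In Jmjd3-/- replicate 1 they read between 2.54 and 10.45, with a median of 3.30, and in Jmjd3-/- replicate 9 between 3.02 and 4.42, with a median of 3.60. The lowest of 20 wild-type spots was 13.4 times the highest of 20 Jmjd3-/- spots, and the genotypes did not overlap. The spots of an array are repeats of the same probe and not samples, and n was 2 per genotype.

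All 10 spots were well above background on each wild-type array and 0 of 10 on each Jmjd3-/- array. The Jmjd3-/- spots lay below the dimmest probe that was well above background on their arrays, at 12.6 in replicate 1 and 14.8 in replicate 9. After background subtraction alone, 2 of 10 spots read below 0 on each Jmjd3-/- array. The scanner software's weaker test, of a signal significantly above background, was met by 4 spots in replicate 1 and 1 spot in replicate 9. Spots marked as outliers were 3 in replicate 1, the brightest at 10.45 among them, 1 in replicate 9 and 0 in either wild-type array, and without them the medians were 3.23 and 3.59.

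**Figure D1:**
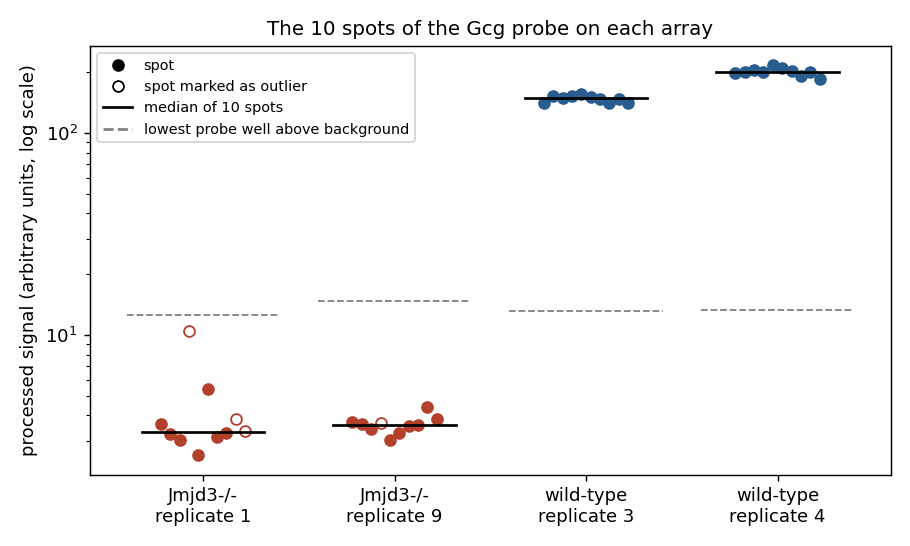
Processed signal (arbitrary units, log scale) of each of the 10 Gcg spots on the 4 arrays, with the median as a solid line and the dimmest probe well above background as a dashed line; open circles are spots marked as outliers. The wild-type spots lie between 140.4 and 216.2 and the Jmjd3-/- spots at or below 10.45, under the dashed line of their array.

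On the log2 scale Gcg was at −2.02 and −1.64 in the wild-type pair and at −7.30 and −7.33 in the Jmjd3-/- pair. The wild-type arrays were 0.38 apart, against 5.28 between the nearest arrays of opposite genotype. Since the Jmjd3-/- arrays were at background, Gcg has only a bound there: it was at least 12.2-fold lower, from the wild-type mean against the lowest signal well above background on the Jmjd3-/- arrays. The bound was between 10.68-fold and 13.87-fold when any 1 array was left out. The fitted difference of −5.49 (moderated SE 0.15, n = 2 per genotype) is the measured value and not a bound. With normexp background correction, which adds an offset of 50 before the log2 is taken, it was −1.77.

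Of 13583 genes tested, 117, or 0.861%, were well above background on both wild-type arrays and on neither Jmjd3-/- array, and 35, or 0.258%, showed the opposite state. Among the 117, each read by its brightest probe, Gcg had the highest bound. The next was at least 6.69-fold lower, and the median bound was 1.55-fold. Gcg was chosen from this same contrast, so its place among the 117 is a description and nothing is read from it. Only 245 probes of the array had 10 spots, and 4 of these were above background on both wild-type arrays alone: those of Gcg, Myf5, Calb1 and Gata4, of which the bounds other than that of Gcg were at least 1.30-fold to 1.79-fold. For Gata4 this is the dimmer of 2 probes, and its brighter probe was well above background on all 4 arrays, with a difference of −0.56.

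Pyy was read by 2 probes, both well above background on all 4 arrays. The brighter, A_51_P241733 (NM_145435), read 479.2 and 494.3 in wild-type replicates 3 and 4 against 257.3 and 189.2 in Jmjd3-/- replicates 1 and 9. The dimmer, A_52_P366462, read 87.8 and 78.3 in the wild-type arrays against 47.9 and 40.95. With either probe both Jmjd3-/- arrays were below both wild-type arrays, and replicate 9 was the lower of the pair.

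For the brighter probe the difference was −1.09 (moderated SE 0.16, n = 2 per genotype), which put the Jmjd3-/- mean at 47.0% of the wild-type mean. For the dimmer probe it was −0.85 (SE 0.13), or 55.4%. With 1 array left out the brighter probe's difference lay between −1.28 and −0.90. Each probe had a single spot on an array. Probes with 10 spots and a signal within 2-fold of the brighter probe's range had a median spot-to-spot SD of 0.06 on the log2 scale. That SD is within an array and does not measure the spread between samples. For the brighter probe, replicate 9 less replicate 1 of Jmjd3-/- was −0.38, and replicate 4 less replicate 3 of wild-type was −0.02. The gap between the nearest arrays of opposite genotype was 0.89.

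The promoters of Gcg and Pyy are shown because both transcripts were lower in both Jmjd3-/- samples. The letters TTTAT were searched because caudal homeobox proteins such as Cdx2 can bind them, and TATAAA because it is a form of the TATA box. Other forms of the TATA box were not searched, so a window without TATAAA may still hold one. Each line gives the 250 bases before the RefSeq transcript start in build GRCm38.p6, 5′ to 3′ on the gene's strand. Capitals mark TTTAT and TATAAA on either strand, which overlap wherever TATAAA occurs.
Gcg, chr2:62483654-62483903, minus strand: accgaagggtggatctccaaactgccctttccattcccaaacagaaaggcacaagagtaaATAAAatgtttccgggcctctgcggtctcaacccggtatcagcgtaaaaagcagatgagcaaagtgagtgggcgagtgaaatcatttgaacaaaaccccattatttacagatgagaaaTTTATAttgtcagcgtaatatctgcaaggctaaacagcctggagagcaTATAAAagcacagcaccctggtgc
Pyy, chr11:102107833-102108082, minus strand: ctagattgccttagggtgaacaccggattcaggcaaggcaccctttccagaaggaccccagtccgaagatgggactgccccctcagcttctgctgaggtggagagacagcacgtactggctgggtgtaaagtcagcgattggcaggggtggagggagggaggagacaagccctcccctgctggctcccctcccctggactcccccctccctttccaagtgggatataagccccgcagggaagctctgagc

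The Gcg window held 3 matches of TTTAT and 2 of TATAAA, and the Pyy window held 0 of either. The Neurog3 window held 1 match of TTTAT, and those of Iapp, Chga, Pdx1 and Ptf1a held 0 of either. Of 32851 promoter windows of this length in the table, 37.3% held TTTAT and 12.4% held TATAAA. These are matches of letters and not sites of binding. Cdx2 was at 3.03 and 2.48 in the Jmjd3-/- pair and at 1.19 and 1.42 in the wild-type pair, a difference of 1.45 (SE 0.23, limma adjusted p = 0.295), which did not pass. CG pairs, which cluster in the promoters of many developmental regulators, numbered 7 for Gcg and 5 for Pyy (7 for its other listed start), near the median of 6 over all windows. They numbered 3 for Iapp, 10 for Pdx1, 16 for Chga, 18 for Neurog3 and 19 for Ptf1a, and 19.7% of all windows held as many as Ptf1a or more. The hormone genes thus had fewer CG pairs than the transcription factor genes and Chga, and among the transcription factors Pax4 had no entry.

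Chga was higher in Jmjd3-/-, unlike Gcg and Pyy. Its 1 probe read 561.6 in replicate 1 and 403.9 in replicate 9 of Jmjd3-/-, against 300.9 and 346.1 in the wild-type pair. Both Jmjd3-/- arrays were above both wild-type arrays, and replicate 1 was the higher. The difference was 0.62 (SE 0.17, n = 2 per genotype), or 153.2% of the wild-type level. It was 0.41 without Jmjd3-/- replicate 1 and 0.82 without replicate 9.

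Neurog3, the switch of the endocrine programme, read 41.4 and 38.3 in the Jmjd3-/- arrays and 53.4 and 61.9 in the wild-type arrays, well above background on all 4. The Jmjd3-/- arrays were the lower pair, with a difference of −0.48 (SE 0.09), or 71.9% of the wild-type mean. The gap between the nearest arrays of opposite genotype was 0.38. Replicate 9 less replicate 1 of Jmjd3-/- was −0.05, and replicate 4 less replicate 3 of wild-type was 0.14. Probes with 10 spots near this signal had a median spot-to-spot SD of 0.14, and the Neurog3 probe had 1 spot.

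The pancreatic progenitor factors were at the edge of detection. Pdx1 read 14.6 and 12.93 in the wild-type pair and 2.91 and 3.35 in the Jmjd3-/- pair, and was not well above background on any array. By the software's weaker test its signal was above background on both wild-type arrays and on 0 of 2 Jmjd3-/- arrays. Ptf1a read 18.35 and 14.2 in the wild-type arrays and 11.5 and 4.24 in the Jmjd3-/- arrays, also never well above background, and met the weaker test on both wild-type arrays and on Jmjd3-/- replicate 1. In both genes the Jmjd3-/- arrays lay below the wild-type arrays, with no fold given because neither genotype was above background. Probes with 10 spots at such signals had a median spot-to-spot SD of 0.36 for the range of Pdx1 and 0.34 for that of Ptf1a.

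Pax4 read 13.8 in replicate 1 and 9.11 in replicate 9 of Jmjd3-/-, against 13.2 and 14.4 in the wild-type pair. It was well above background on 1 array of each genotype, and the genotypes overlapped. Of the members only Gcg had spots marked as outliers.

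**Figure D2:**
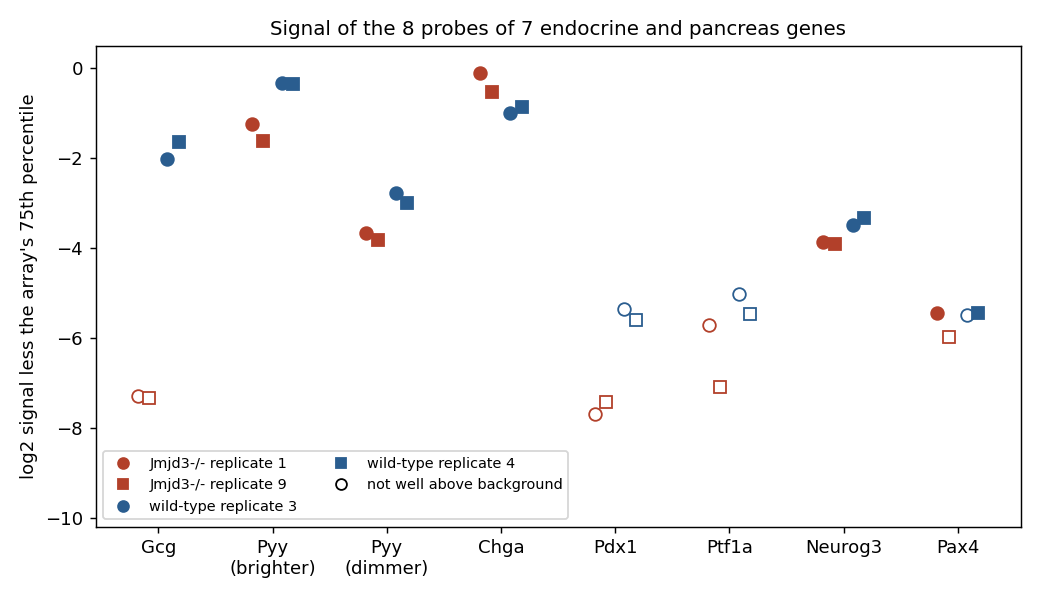
Log2 signal less the array's 75th percentile for each of the 8 probes on the 4 arrays, in red for Jmjd3-/- and blue for wild-type; open symbols were not well above background. Gcg shows the widest gap, from −7.30 and −7.33 to −2.02 and −1.64, both Pyy probes are lower in Jmjd3-/-, Chga is higher, and the Pax4 arrays overlap.

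Of the 4 members tested, 1, Gcg, was among the 5 genes called at a limma adjusted p under 0.05, when 0.0368% of the 13583 tested genes were called (0.0147% lower and 0.0221% higher). The genotypes did not overlap in the 4 members tested, 3 of them lower and 1 higher in Jmjd3-/-. Of all genes tested 46.7% did not overlap, 23.7% lower and 23.0% higher, and 53.1% were lower by any amount. These counts come from the contrast that chose the members, so nothing is read from them.

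**Figure D3:**
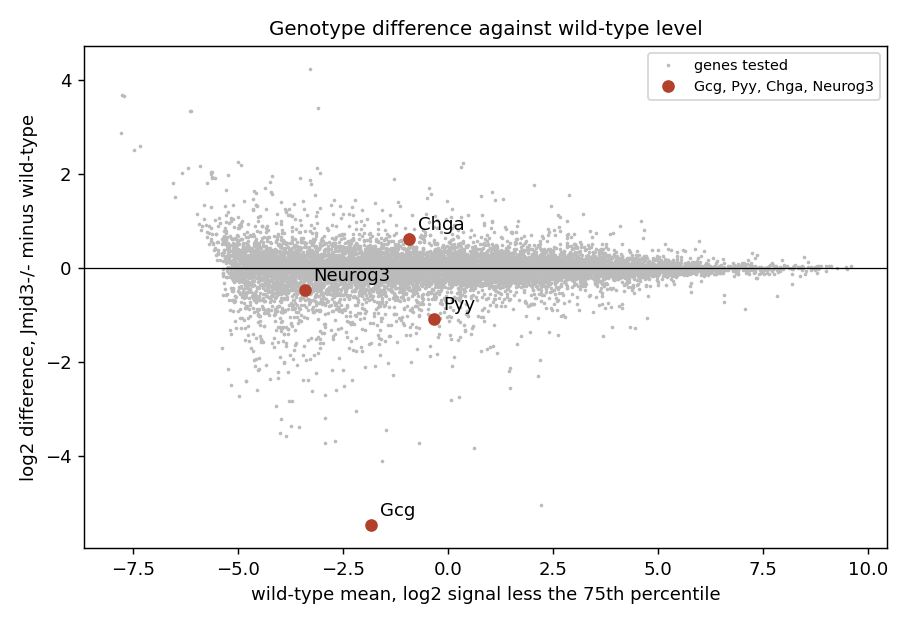
Log2 difference (Jmjd3-/- minus wild-type) against the wild-type mean (log2 signal less the 75th percentile) for 13583 tested genes in grey, with Gcg, Pyy, Chga and Neurog3 in red. Gcg lies at −5.49, a measured value, since its Jmjd3-/- signal was at background.

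None of the tested genes beside Gcg and Pyy on their chromosomes passed. Of the 10 nearest protein-coding genes with a probe around Gcg on chromosome 2, 7 were tested and 0 passed (lowest limma adjusted p = 0.483, all above 0.05 unadjusted), with differences from −0.37 for Fap to 0.27 for Ifih1. Dpp4, next to Gcg among genes with a probe, encodes the protease that inactivates glucagon-like peptides and trims peptide YY. It was at −2.99 and −2.86 in Jmjd3-/- and −3.09 and −2.84 in wild-type, a difference of 0.04 (SE 0.12).

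Around Pyy on chromosome 11, 7 of 10 were tested and 0 passed (lowest limma adjusted p = 0.473, all above 0.05 unadjusted), with differences from −0.32 for Lsm12 to 0.29 for Mpp3. Ppy, next to Pyy among genes with a probe, encodes the related pancreatic polypeptide. It was well above background on 1 array, wild-type replicate 4, and was not tested. Kdm6b lies on chromosome 11 too. Of 1146 genes tested on that chromosome 30, or 2.62%, had a lower difference than Pyy, against 238 of all genes, or 1.75%.

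**Figure D4:**
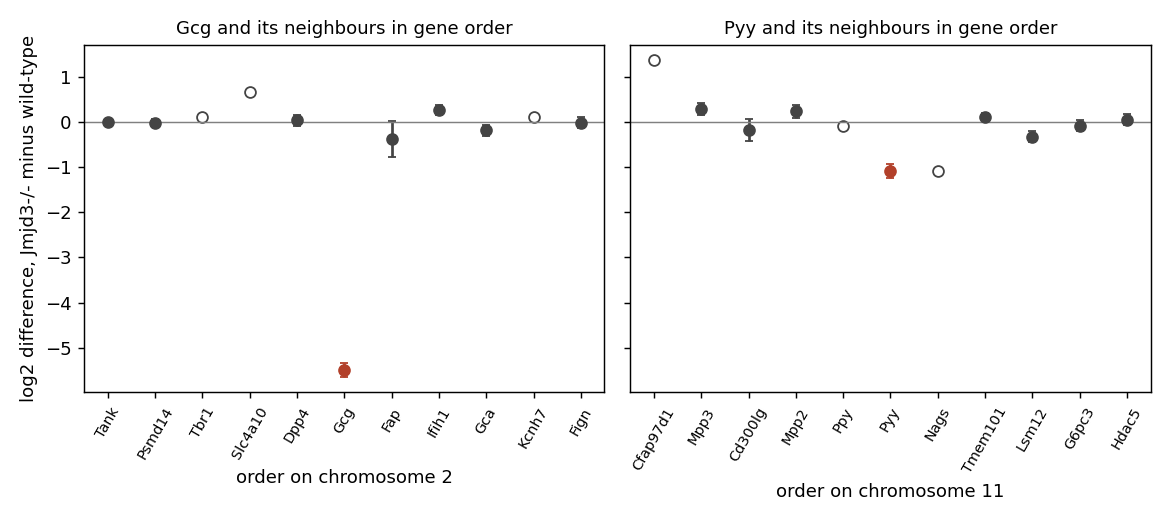
Log2 difference (Jmjd3-/- minus wild-type) of Gcg and Pyy, in red, and of the 5 protein-coding genes with a probe on either side, in gene order; bars are moderated SE, and open circles were not tested. The tested neighbours lie between −0.37 and 0.29, against −5.49 for Gcg and −1.09 for Pyy.

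The genes with the most similar pattern over the 4 arrays were taken by the Euclidean distance of log2 values centred on each gene's mean. For Gcg these were Itih2, at a distance of 1.69, and then Cstdc1, Dydc1, Afm and Tbx15. Itih2 was above background on 1 Jmjd3-/- array and the other 4 on none, so these distances rest on background readings there, as for Gcg. For Pyy they were Clca1, Crym, Clec1b, Wif1 and Vtn, at distances from 0.16 to 0.22. For Chga they were Sp8, at 0.01, then A2m, Kmt2d, Epha2 and Prkd1, and for Neurog3 Cyb561, at 0.03, then Drd4, Traf5, Npr3 and Ptn. With 4 arrays the distance mostly follows the size of the difference.

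Among the other peptide hormones Ghrl, the ghrelin gene, had 1 probe that was above background in wild-type only. Of 20 listed, 12 were tested and 0 passed the limma adjusted p under 0.05, with 3 under 0.05 unadjusted (11.1% of all genes tested). Their median difference was −0.28, against −0.01 over all genes tested, with 8 negative and 4 positive, but −0.09 with normexp and −0.09 without a filter on dim probes. Sst, which encodes somatostatin, was at −3.93 and −4.61 in Jmjd3-/- and −2.45 and −3.04 in wild-type, a difference of −1.52 (SE 0.34, limma adjusted p = 0.335). The probes of Ghrl disagreed in size. The brighter read −1.30 and −1.19 in Jmjd3-/- and −0.77 and −0.85 in wild-type, a difference of −0.43 (SE 0.09), and the dimmer was at −2.51 and −2.37 in wild-type and above background on neither Jmjd3-/- array, at least 7.97-fold lower. Cck differed by −0.25 (SE 0.10). Ins2, an insulin gene, differed by 0.37 (SE 0.10), and Ins1, Gip, Npy, Tac1, Vip and Calcb were not well above background on any array.

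Genes that build secretory granules or process prohormones had a median of −0.21 (−0.13 without Jmjd3-/- replicate 1 and −0.12 with normexp) over 17 tested of 23, 12 negative and 5 positive, and 0 passed by limma (5 under 0.05 unadjusted). Chgb, a granin like Chga, was at −3.71 and −3.23 in Jmjd3-/- and −2.51 and −2.73 in wild-type, a difference of −0.85 (SE 0.21, limma adjusted p = 0.355). Its sign is opposite to that of Chga. Pcsk2, the convertase that releases glucagon, differed by −0.46 (SE 0.11), and by −0.05 when averaged with its other probe, which was above background on no array. Scg3 differed by −0.84 (SE 0.27), Slc18a2 by −0.37 (SE 0.08) and Ddc by −0.49 (SE 0.15) at its brighter and −1.25 at its dimmer probe.

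Among receptors for these peptides and their partners 7 of 17 were tested and 0 passed (1 under 0.05 unadjusted, Ramp2, at −0.24, SE 0.07). The median was −0.24, but 0.08 when dim probes were kept and 0.03 when the probes of a gene were averaged, so it has no settled sign. Glp1r, which encodes the receptor for glucagon-like peptide, and the peptide YY receptor genes Npy1r, Npy2r and Npy5r were not well above background on any array.

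Transcription factors of endocrine cells had a median of −0.36 over 15 tested of 20, with 13 negative and 2 positive, and 0 passed by limma (4 under 0.05 unadjusted). St18 was at least 1.86-fold lower, Myt1 at least 3.57-fold and Insm1 at least 3.14-fold lower. Each was above background on both wild-type arrays and on neither Jmjd3-/- array. None of them passed by limma, and no p is given because their Jmjd3-/- readings were at background. Nkx2-2 was at −4.95 and −4.36 in Jmjd3-/- and −3.78 and −3.42 in wild-type, a difference of −1.06 (SE 0.26, limma adjusted p = 0.358). All 4 are also genes of the developing nervous system. Leaving out Jmjd3-/- replicate 1 moved the median of these factors to −0.20, and leaving out replicate 9 to −0.58. It was −0.18 with the filter on all 4 arrays and −0.21 with normexp. Without Jmjd3-/- replicate 9, St18 and Rfx6 were at background on the 1 Jmjd3-/- array left, so no test of them is given for that setting.

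Factors of pancreas progenitors and gut endoderm had a median of −0.20 over 21 tested of 23, but 0.11 when Jmjd3-/- replicate 9 was left out, −0.34 when replicate 1 was, and −0.04 with normexp, so its sign is not settled. By limma 0 passed, with 8 under 0.05 unadjusted. Nkx6-2 was at −1.90 in replicate 1 and 0.18 in replicate 9 of Jmjd3-/-, against 0.46 and 0.64 in wild-type. Onecut2 was at −1.90 and −1.94 in Jmjd3-/- and −1.05 on both wild-type arrays, a difference of −0.87 (SE 0.07, limma adjusted p = 0.152). Gata6 differed by −0.53 (SE 0.13) and Rbpjl, a partner of Ptf1a in acinar cells, by −0.56 (SE 0.13), whereas Cdx1 differed by 0.79 (SE 0.11). Foxa2, a factor of gut endoderm that is not specific to it, differed by 0.13.

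Exocrine genes differed both ways, with a median of 0.02 (0.41 without Jmjd3-/- replicate 9) over 7 tested of 16 and 0 past the limma threshold (5 under 0.05 unadjusted). Prss2, a trypsin gene of a family with near-identical copies that its signal may include, was at least 2.77-fold higher in Jmjd3-/-. It did not pass, and no p is given because its wild-type readings were at background. Cpa1 differed by −1.32 (SE 0.15), Cpb1 by 1.08 (SE 0.27) and Spink1 by 0.85 (SE 0.14). Cpb1 was at −3.09 in replicate 1 and −3.79 in replicate 9 of Jmjd3-/-, against −4.49 and −4.555 in wild-type.

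**Figure D5:**
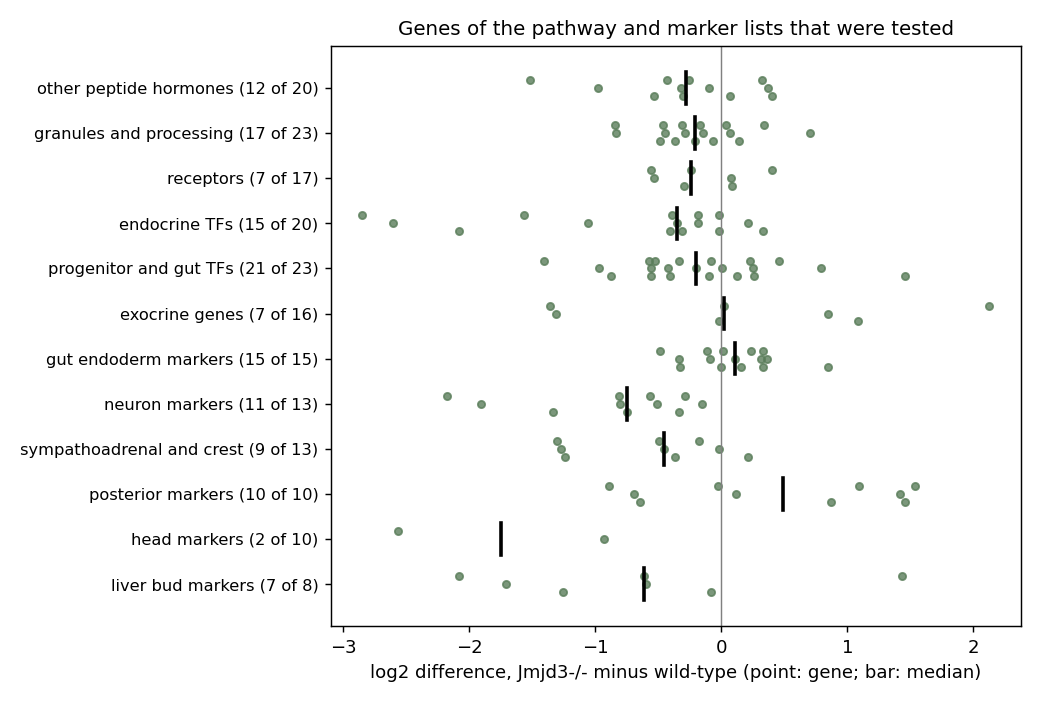
Log2 difference (Jmjd3-/- minus wild-type) of each tested gene of the pathway and marker lists, 1 point a gene, with the list's median as a bar; brackets give how many of how many were tested. Neuron markers all lie below 0, and gut endoderm markers lie around 0 with a median of 0.11.

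In a sample of mixed tissue, fewer cells of a type and less RNA per cell cannot be told apart, so the markers of the cells that could carry these transcripts are given. All 15 gut endoderm markers were tested, 9 positive and 6 negative, with a median of 0.11 (0.29 without Jmjd3-/- replicate 1) and 0 past the limma threshold (3 under 0.05 unadjusted). Their summed level, in units of the 75th percentile, was 141.1 and 175.8 in Jmjd3-/- and 142.5 and 111.3 in wild-type. Cdh1 was at 0.48 on both Jmjd3-/- arrays and at 0.22 and 0.10 in wild-type, and Epcam differed by −0.33 (SE 0.24). Krt8 and Krt18 made up most of the sum. Without them, a choice made after seeing the data, it was 13.8 and 16.9 in Jmjd3-/- and 14.6 and 13.7 in wild-type, and the genotypes overlapped in either sum.

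Neuron markers were lower beside Gcg and Pyy: all 11 tested of 13 were lower without overlap (23.7% of all genes tested), with a median of −0.75 (−0.48 without Jmjd3-/- replicate 1) and a summed level of 3.22 and 4.58 in Jmjd3-/- against 6.999 and 7.021 in wild-type. None passed by limma (8 under 0.05 unadjusted, against 11.1% of all genes tested). Elavl3 was at −2.44 in replicate 1 and −1.11 in replicate 9 of Jmjd3-/-, against 0.16 and 0.11 in wild-type. Tubb3 was at −1.35 and −0.52 in Jmjd3-/-, against 0.44 and 0.37. Dcx was at background on Jmjd3-/- replicate 1. Sympathoadrenal and crest markers had a median of −0.45 (−0.15 without Jmjd3-/- replicate 1) over 9 tested of 13. By limma 0 passed (3 under 0.05 unadjusted), and Erbb3 and Ret were among those not well above background on any array. Sox10 was at −2.53 in replicate 1 and −0.35 in replicate 9 of Jmjd3-/-, against −0.18 and −0.23 in wild-type. The summed level of this list was 3.065 and 3.90 in Jmjd3-/- and 4.40 and 4.22 in wild-type. Liver bud markers, from the endoderm next to the pancreas, had a median of −0.62 over 7 tested of 8. Normexp correction shrank this median to −0.26. Dropping a Jmjd3-/- array deepened it, to −1.39 for replicate 1 and to −1.09 for replicate 9. This list had 0 genes past the limma threshold (4 under 0.05 unadjusted). Its summed level was 33.8 and 6.15 in Jmjd3-/- against 20.2 and 13.6 in wild-type, so the genotypes overlapped. Without Alb, a choice made after seeing the data, it was 7.30 and 6.15 in Jmjd3-/- against 20.0 and 13.5 in wild-type. Posterior markers differed both ways: 5 of 10 were higher without overlap (23.0% of all genes tested), Tbx6 (1.54) and Cdx2 (1.45) among them. The 3 lower without overlap (23.7% of all genes tested) were Hoxd10 (−0.65), Hoxd13 (−0.69) and Hoxa11 (−0.89). None of the 10 passed by limma (7 under 0.05 unadjusted, against 11.1% of all genes tested). Their median was 0.49 (0.71 without Jmjd3-/- replicate 9), and Tbx6 made up most of their summed level in Jmjd3-/- replicate 1. That level was 52.8 and 32.6 in Jmjd3-/- and 19.5 and 21.4 in wild-type. The 2 head markers tested, Lhx2 and Emx2, had a summed level of 0.28 and 1.11 against 2.69 and 3.25. Lhx2 was at −2.09 in replicate 1 and −0.08 in replicate 9 of Jmjd3-/-, against 1.35 and 1.61 in wild-type. The part of all these markers in the differences of Gcg, Pyy and Neurog3 was not tested.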

How the data were processed

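Spot intensities of 4 Agilent 1-colour arrays were analysed, deposited by the authors as scanner files from Agilent Feature Extraction 10.7.3.1, per the file headers. The processed intensity had background and spatial trend removed within the array, per the file headers, with no normalization between arrays. Its well-above-background, significance, outlier and saturation flags are yes-or-no marks, also deposited. The deposited series table holds log2 values whose scale, centring and direction no label states. Set against the scanner values, 99.9% of them lay within 0.01 of the scaled log2 signals centred on the wild-type mean (r from 0.995 to 0.997). Column medians were −0.02 and 0.05 (Jmjd3-/-) and 0.02 and −0.02 (wild-type).

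From 45018 spots 1639 controls were removed, log2 signals were averaged per probe, and each array was scaled to its 75th percentile. Accessions were named through the RefSeq table of GRCm38.p6: 26690 probes by accession, 28 by name and 14456 unnamed. Promoter sequences come from the same build. The file headers name another build, so no coordinate from them is used. The brightest probe stood for a gene, and testing required it to be well above background in both samples of at least 1 genotype (for a probe with 10 spots, on more than 5 of them). Limma 3.58.1 in R 4.3.3 compared the genotypes without covariates, with p-values adjusted over 13583 genes (Benjamini-Hochberg). An exact permutation of 2 against 2 cannot give a two-sided p below 2 in 6, so none was run. A bound sets the bright genotype's mean against, per array, the higher of the gene's own signal and the dimmest detected probe. A run of the fit on simulated data checked only whether set differences were recovered. Its variances were not taken from these arrays, so it says nothing about the number of calls here. The arrays lay on 1 slide, and their number limits the precision.

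The members and lists were chosen with earlier results of these data known. Named genes are the members, Kdm6b, up to 5 genes a list by smallest p, neighbours and the most alike genes. Beyond these, Rfx6, Foxa2, Elavl3, Alb, Hnf4a, Nkx6-2, Sox10, Hoxa11, Krt8, the undetected genes and the probes with 10 spots were named after their values were seen. Alternatives were normexp correction (on median spot signals, as the files hold no mean), other scalings, filters and probe rules, outlier spots left out, the series table and each array left out. Some genes of the lists are counted but not reported by name here.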

Additional observations from a re-analysis of the deposited data

How the results depend on the processing

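Gcg, Pyy, Chga, Neurog3, Pdx1 and Ptf1a kept the sign of their difference in every alternative that gave them a value. The difference of Gcg was −1.77 with normexp and between −5.68 and −5.30 with 1 array left out, and that of the brighter Pyy probe between −1.28 and −0.90. Normexp also moved the dimmer Pyy probe to −0.39 and Neurog3 to −0.22. It shrank the differences of Pdx1 to −0.22 and of Ptf1a to −0.08. Neither of these genes was well above background on any array, so their kept sign says little. With 1 array left out, Pax4 lay between −0.52 and 0.022 and Emx2 between −1.89 and 0.029, and Ramp1 turned to 0.034 when a gene's probes were averaged. The 5 genes called over all genes by limma, 2 of them lower, became 2 (1 lower) with normexp, 3 (1 lower) with averaged probes, 3 with a variance trend, and 8 (4 lower) with every probe as its own feature. The lower calls numbered 4 with median scaling and 4 without outlier spots, 7 calls in all in each. They became 0, all and lower, with quantile normalization (1465 genes at an unadjusted p under 0.05), without the filter (1621) and with a filter on all 4 arrays (1415), where Gcg could not be tested. With 1 array left out they ranged from 0 (wild-type replicate 3 left out, 720 unadjusted) to 182 (Jmjd3-/- replicate 9 left out), and the lower calls from 0 to 93. Leaving out Jmjd3-/- replicate 1 gave 48, and wild-type replicate 4 gave 1. The cause was not tested. No paired analysis was possible because the genotypes share no replicate number. Signal over background limits Pdx1, Ptf1a and Pax4, which had 1 spot each near the background.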

Other observations

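Alb, the albumin gene of the liver bud list, was at 4.73 in Jmjd3-/- replicate 1 and −7.31 in replicate 9, against −2.31 and −3.14 in the wild-type pair. The Jmjd3-/- arrays thus stood on opposite sides of the wild-type pair, and the summed level of the liver bud list, 33.8 in replicate 1 and 6.15 in replicate 9, followed this gene. No other tested liver bud gene showed a spread of that size. Afp, the fetal plasma protein gene, was at 2.78 and 2.51 in the Jmjd3-/- arrays and Apoa2, an apolipoprotein gene, at −4.06 and −4.05. Apoa1 was at −4.25 and −3.31. Hnf4a was at −4.81 and −5.89, also on opposite sides of the wild-type pair (−5.40 and −5.14).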
